A study of Mus musculus with 6 samples.

Results

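Alpha-defensins (cryptdins in the mouse) are small peptides, rich in cysteine and positive charge, that Paneth cells at the crypt base of the small intestine store in granules and release into the lumen, where they damage the membranes of bacteria. They are made as inactive precursors that the protease Mmp7 cuts in mouse Paneth cells, and their transcription there is known to depend on Wnt signaling through TCF factors. The mouse genome holds a large family of near-identical copies, some of them of a longer, cysteine-richer kind called CRS1C (cryptdin-related sequences).

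The genes described here were those in the feature lists of the libraries whose symbol starts with Defa and a digit, with 10 further symbols of the same family where listed. This gave 28 genes of 32285, 22 with a Defa symbol and 6 of the 10 further ones (*AY761184*, *Gm14851*, *Gm15292*, *Gm15293*, *Gm7849* and *Gm7861*). *Defa25* had no UMI (a counted RNA molecule) in any called barcode, which left 27. They were read in Paneth cells, defined as barcodes with at least 2% of their UMIs from *Lyz1* (lysozyme, the granule enzyme that marks Paneth cells), and in all other barcodes and cell-free droplets. *Lyz1* is the only gene in the limit, but alpha-defensin UMIs are part of the total it is divided by, so a barcode very rich in them can fall under it. It left 556 Paneth cells of 26696 barcodes that passed the filters.

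Single jejunal epithelial cells were profiled from wildtype C57BL/6J male mice of about 30 weeks, after 16 weeks of diet and 5 weeks after surgery. The mice were fed a low-fat diet and sham-operated (LFD sham, 3 mice pooled), fed a high-fat diet and sham-operated (HFD sham, 3 mice pooled), or fed a high-fat diet and given vertical sleeve gastrectomy, a weight-loss operation that removes much of the stomach (HFD VSG, 2 mice pooled). Each pool gave a crypt-labelled and a villus-labelled library, so each group and fraction was 1 library, no test between groups was possible, and both fractions of a group shared their mice. All intervals given are at 95% and cover counting error only; they say nothing of the spread between mice.

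The crypt-labelled libraries held 48 Paneth cells in LFD sham, 29 in HFD sham and 41 in HFD VSG, and the villus-labelled ones 179, 216 and 43 in the same order. Paneth cells reside in crypts, so their number in the villus-labelled libraries went against the name of that fraction. Barcodes with at least 5% of UMIs from enterocyte markers were also more frequent under the crypt label. They were 3290 of 4562, 2608 of 3257 and 4146 of 5191 passing barcodes outside Paneth cells there. In the villus-labelled libraries they were 1333 of 4377, 2214 of 4099 and 1006 of 4654. Below, crypts and villi name these labels only, and the tissue behind them was not tested. Their depth differed widely. Median UMIs per Paneth cell were 4740, 15865 and 42773 in the crypts and 49331, 9423 and 60044 in the villi of LFD sham, HFD sham and HFD VSG. *Gm42418*, *Gm26917*, *Lars2* and *AY036118*, listed here as a possible sign of damaged droplets, made up a median of 5.84%, 4.93% and 0.375% of UMIs per Paneth cell in the crypts and 0.952%, 3.74% and 0.659% in the villi. Whether they mark damage was not tested. Markers of a second cell type were carried by 10, 3 and 6 Paneth cells in the crypts and by 7, 28 and 6 in the villi. The part of depth, of these listed genes and of second-type markers in the differences below was not tested. Between 17 and 43 called barcodes were shared by any pair of libraries, and 0 Paneth barcodes were.

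The label of the summed cells was checked against some of the Paneth markers that did not choose them. *Itln1* (a granule lectin) ranged from 34606 to 42448 CPM (UMIs of the gene per 1000000 UMIs) over the 6 libraries, *Clps* (colipase) from 3733 to 4726 CPM and *Mmp7* from 1707 to 2311 CPM, while a list of immune markers summed to at most 0.00534% of Paneth UMIs. Goblet markers summed to between 0.827% and 1.38%, and enterocyte markers to between 0.133% and 0.758%. *Mptx2*, also a Paneth marker, differed more between libraries and is given below. The list of Paneth markers also held *Ang4*, *Habp2*, *Nupr1* and *Pnliprp2*, whose levels are not given here. *Pnliprp2* was higher by at least 0.5 log2 in HFD sham than in LFD sham crypts and lower in HFD VSG than in HFD sham crypts. *Habp2* was lower by that size in HFD VSG than in HFD sham villi, and *Nupr1* higher in HFD VSG than in LFD sham villi. Deep cells weigh most in these sums, so they say little of single shallow cells.

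All 28 genes lay in 1 cluster on chr8:21025545-21735471 (GRCm38, GENCODE vM21 annotation), a span of 710 kb, and each was annotated as protein coding. 23 were on the plus strand with 92 to 95 codons, of which 6 or 7 encode cysteine. The other 5 (*Gm14851*, *Defa29*, *Gm7849*, *Gm7861* and *AY761184*) were on the minus strand, with 116 codons and 11 for cysteine, the CRS1C type. The last codons of 6 of them are shown because they set both kinds apart and show how little separates the genes that are compared later. Cysteine codons are in capitals, and the sequences run 5′ to 3′ on the coding strand to the codon before the stop (GENCODE vM21).
Defa30: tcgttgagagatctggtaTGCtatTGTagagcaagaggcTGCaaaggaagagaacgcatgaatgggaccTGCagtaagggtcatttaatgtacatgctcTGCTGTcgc
Defa21: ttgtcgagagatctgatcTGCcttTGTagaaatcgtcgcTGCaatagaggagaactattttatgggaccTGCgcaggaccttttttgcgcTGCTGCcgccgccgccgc
Defa22: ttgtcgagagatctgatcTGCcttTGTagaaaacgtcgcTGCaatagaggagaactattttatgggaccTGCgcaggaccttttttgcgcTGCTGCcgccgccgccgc
Defa20: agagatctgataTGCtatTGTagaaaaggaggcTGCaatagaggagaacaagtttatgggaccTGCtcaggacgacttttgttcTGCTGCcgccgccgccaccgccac
Gm7861: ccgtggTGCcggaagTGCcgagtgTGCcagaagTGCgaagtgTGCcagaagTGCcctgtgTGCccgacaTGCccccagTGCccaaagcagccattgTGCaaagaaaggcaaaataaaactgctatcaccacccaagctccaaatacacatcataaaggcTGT
Gm14851: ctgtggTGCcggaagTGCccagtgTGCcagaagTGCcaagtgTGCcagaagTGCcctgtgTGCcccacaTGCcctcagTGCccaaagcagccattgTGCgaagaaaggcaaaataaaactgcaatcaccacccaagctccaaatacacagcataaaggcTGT

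*Defa21* (chr8:21025545-21026516) and *Defa22* (chr8:21162277-21163249) differ at 2 of 279 coding bases, T114G and T204A from *Defa21* to *Defa22*, counted from 1 at the first base of the start codon. *Defa30* (chr8:21134642-21135598) differs from *Defa24* (chr8:21734494-21735471) at 4 of 279 coding bases. Coding sequences were identical between *Defa2* and *Defa33*, *Defa20* and *Defa32*, *Defa23* and *Defa31*, *Defa3* and *Defa17*, *Defa36* and *Defa37*, and *Gm7849* and *Gm7861*. Joined at 98% identity or more, the 28 genes formed 7 groups of several members and 8 single genes. A read that fits several genes is left out by the counting, so a low count of a near-identical copy is not a low level. Windows of 90 bases in the last 300 bases of the transcript were unique in 100% of cases for *Defa24* and *AY761184*, 98.6% for *Defa30*, 61.1% for *Defa21* and *Defa22*, 13.3% for *Defa3* and *Defa17*, 8.5% for *Gm7861* and 0% for *Defa2*, *Defa33*, *Defa23*, *Defa31*, *Defa36*, *Defa37*, *Defa34* and *Gm7849*. Levels are in CPM without scaling to length, because the 3′ assay counts 1 tag per molecule, but copies that share most of their sequence are uncertain. This holds for *Defa36*, *Defa23*, *Gm7849*, *Defa5*, *Defa34*, *Defa20* and *Defa32*, named singly in the comparisons, and for *Defa3*, *Defa17* and *Gm7861*. Their counting intervals do not cover reads lost or assigned to a copy.

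Promoters of 16 members were matched in RefSeq (GRCm38.p6, 250 bases before the start). TATAAA, the TATA box, was present on either strand in 15 of the 16, against 12.4% of all 32851 promoters. ATCAAAG, or CTTTGAT on the other strand, a form of the site TCF factors bind, was in 13 of the 16 against 3.21% of all. The 16 are not separate cases, since several are copies. *Defa21* and *Defa22*, *Defa23* and *Defa31*, *Defa2* and *Defa20*, *Defa36* and *Defa37*, and *Gm7849* and *Gm7861* were identical over all 250 bases. The motifs do not overlap, and in 9 members the nearest ATCAAAG began 41 bases before TATAAA. 72 bases lined up at TATAAA are shown for genes whose levels are compared below, with both motifs in capitals.
Defa21, chr8:21025466-21025537, plus strand: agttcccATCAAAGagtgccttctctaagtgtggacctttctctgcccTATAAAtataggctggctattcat
Defa22, chr8:21162198-21162269, plus strand: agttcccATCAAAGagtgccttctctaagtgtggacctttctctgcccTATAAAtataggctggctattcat
Defa20, chr8:21509179-21509250, plus strand: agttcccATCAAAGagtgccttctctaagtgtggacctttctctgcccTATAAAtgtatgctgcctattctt
Defa30, chr8:21134541-21134612, plus strand: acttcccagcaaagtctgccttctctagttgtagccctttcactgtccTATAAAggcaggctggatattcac
Gm14851, chr8:21096101-21096172, minus strand: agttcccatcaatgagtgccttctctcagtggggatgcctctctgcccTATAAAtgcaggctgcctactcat
Gm7861, chr8:21594516-21594587, minus strand: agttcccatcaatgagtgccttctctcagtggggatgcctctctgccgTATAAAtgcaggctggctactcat
The promoters of *Defa21* and *Defa22* were identical over all 250 bases, and that of *Defa20* differed from them at 5 of the 174 bases that lined up at TATAAA. *Defa30*, lined up the same way, had 73.0% of bases equal to those of *Defa20*, 73.6% to those of *Defa21* and 86.8% at most, to *Defa23* and *Defa31*. The 3 matched CRS1C-type promoters (*Gm14851*, *Gm7849* and *Gm7861*) held no exact ATCAAAG in this window. These matches are letters in a window and say nothing of binding.

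Alpha-defensins filled most of the UMIs summed over Paneth cells, though not of every cell. Their summed share of all Paneth UMIs was 62.6% in LFD sham, 56.7% in HFD sham and 63.9% in HFD VSG crypts, and 63.6%, 58.3% and 67.6% in the villi of the same groups. *Lyz1* held 5.88%, 6.56% and 6.93% in the crypts and 6.08%, 6.68% and 5.66% in the villi. The *Lyz1* share chose the cells and is given as a description. HFD sham had the lowest alpha-defensin share of the 3 groups in both fractions of these sums, but not under every alternative in the crypts. As a mean over cells LFD sham was lowest there, with 41.5% against 45.4% in HFD sham and 52.8% in HFD VSG. With free RNA subtracted at the fractions the study states, which are higher for HFD sham than for the other groups, HFD sham crypts were highest, with 68.3% against 64.4% in LFD sham and 66.2% in HFD VSG.

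A single gene made up close to the same part of the family in the Paneth cells of all 6 libraries. *Defa24* was the most abundant member in all 6 libraries, with 30.1%, 28.6% and 29.2% of Paneth UMIs in the crypts of LFD sham, HFD sham and HFD VSG and 31.7%, 29.4% and 32.0% in the villi. That was 45.6% to 50.5% of all alpha-defensin UMIs. *Defa30*, its near-identical neighbour in sequence, came next with 7.49%, 8.81% and 8.09% in the crypts and 8.73%, 10.1% and 10.2% in the villi. Together they made up 58.3% to 67.8% of alpha-defensin UMIs.

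*AY761184*, the most abundant CRS1C-type gene, held 5.96%, 4.51% and 5.38% of UMIs in the crypts and 6.97%, 4.40% and 6.93% in the villi, lowest in HFD sham in both fractions. *Defa17* stood at 3.47%, 3.72% and 3.58% in the crypts and 3.65%, 3.74% and 3.59% in the villi. *Defa21* held 4.46%, 2.58% and 4.90% in the crypts and 3.13%, 2.35% and 3.55% in the villi. *Defa22* followed it closely with 4.16%, 2.33% and 5.10% in the crypts and 2.70%, 2.11% and 3.32% in the villi. Both were lowest in HFD sham and highest in HFD VSG in each fraction.

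Next came 3 further CRS1C-type genes. *Gm7861* stood at 2.13%, 2.23% and 2.24% in the crypts and 1.89%, 1.90% and 2.05% in the villi. *Gm14851* read 1.57%, 1.01% and 1.67% in the crypts and 1.78%, 1.52% and 2.87% in the villi. *Defa29* read 1.04%, 0.975% and 1.53% in the crypts and 1.05%, 0.803% and 1.05% in the villi. *Gm7861* was nearly level across groups, whereas *Gm14851* was lowest in HFD sham and highest in HFD VSG in both fractions. *Defa29* was also lowest in HFD sham in both, but its level in HFD VSG villi was not told apart from that in LFD sham villi. The tenth, *Defa3*, was at 0.565%, 0.455% and 0.525% in the crypts and 0.514%, 0.407% and 0.469% in the villi.

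The other 17 members with a UMI were below these in mean level. At the low end, where copies could hardly be told apart by a read, *Defa33* had 0, 1 and 11 UMIs in the crypts and 19, 7 and 12 in the villi. *Defa31* had 2, 0 and 2 in the crypts and 4, 2 and 1 in the villi. *Defa37* had 0, 0 and 1 in the crypts and 3, 1 and 1 in the villi. The interval of a count of 0 reached 3.48 CPM in LFD sham crypts and 5.56 CPM in HFD sham crypts. In ratios, counts under 3 UMIs were set to 3, which is 2.83 and 4.52 CPM in these libraries.

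**Figure D1:**
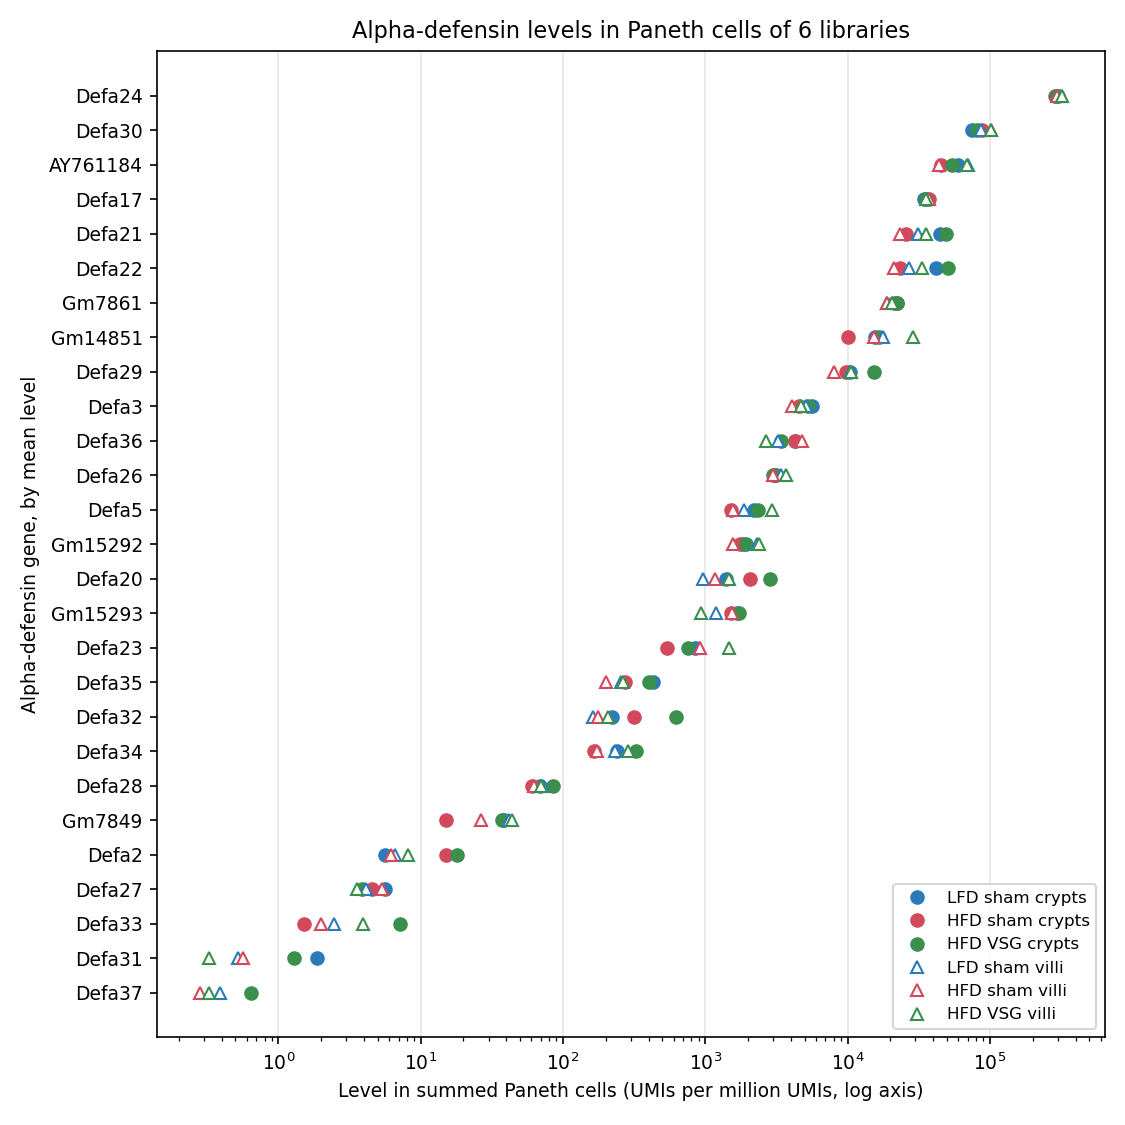
Each row is an alpha-defensin gene, ordered by mean level, and each symbol its level in the summed Paneth cells of 1 library (CPM, log axis; filled circles crypts, open triangles villi, colours the groups; levels of 0 are not drawn). *Defa24* lies between 285556 and 319760 CPM in the 6 libraries, and *Defa33*, *Defa31* and *Defa37*, each identical in coding sequence to another member, lie lowest.

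The first comparison asked how the high-fat diet differed from the low-fat diet, both in sham-operated mice. Summed alpha-defensins were lower in HFD sham than in LFD sham by a log2 ratio of -0.14 (-0.15 to -0.13) in the crypts and -0.13 (-0.13 to -0.12) in the villi. Because the family fills most of the summed UMIs, its share moves less than its level against the other UMIs. A change in the family also moves the CPM of all other genes the opposite way. The shares and medians of all genes given beside the counts below are partly set by this. Set against UMIs outside the family and *Lyz1*, the same ratios were -0.36 and -0.33. The sign in the crypts was not stable. The log2 ratio of the mean share per cell, where every cell weighs the same, was 0.13 there, and over all alternatives the value ran from -0.36 to 0.13, against -0.33 to -0.01 in the villi.

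In the crypts, 7 of the 21 members whose UMIs averaged 50 or more over both libraries were lower by at least 0.5 on the log2 scale, where 6.79% of all 663 genes were, and 2 were higher, where 12.8% of all genes were. The median of the members was -0.14 and that of all genes 0.09. The 7 were *Defa21*, *Defa22*, *Gm14851*, *Defa23* and the trio *Defa5*, *Defa34* and *Defa35*, which are near-identical in sequence and count as 1 group. *Defa22* had the lowest ratio, -0.84 (-0.87 to -0.81), and *Defa21* the next, -0.79 (-0.81 to -0.76). Without the 5 Paneth cells richest in alpha-defensins in each library they were -1.19 and -1.21, and as a mean over cells -0.11 and -0.16, so the size of this difference moved with the weight given to each cell. *Defa20* (1391, 2078 and 2836 CPM in the crypts of LFD sham, HFD sham and HFD VSG) and *Defa32* (220, 315 and 626 CPM), whose coding sequences are identical, went the other way, with 0.58 (0.47 to 0.69) and 0.52 (0.24 to 0.80). Both turned negative without the same 5 cells, to -0.26 and -0.19.

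In the villi, 3 of 22 members were lower by at least 0.5, where 5.9% of 4426 genes were, and 1 was higher, where 21.7% were. The medians were -0.22 for the members and 0.19 for all genes. Over the alternatives the count of lower members ran from 0 to 9 in each fraction. The share of all genes was not computed under them, so this range says nothing particular to the members. *AY761184* had the lowest ratio, -0.66 (-0.67 to -0.66), then *Gm7849* with -0.66 (-1.01 to -0.32) on levels of 41.6 CPM in LFD sham and 26.4 CPM in HFD sham; the third was *Gm15292*, named after its value was seen. *Defa36* was higher by 0.56 (0.53 to 0.58), at 3249 CPM in LFD sham and 4778 CPM in HFD sham, and *Gm15293* by 0.38 (0.33 to 0.42), at 1181 and 1532 CPM. These last 2 belong to the same sequence group as *Defa5*, whose ratio was -0.27 (-0.31 to -0.22), so members of 1 near-identical group lay on both sides of 0.

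The second comparison asked how VSG differed from the sham operation on the same high-fat diet. It shares the HFD sham libraries with the first, so a low value there lowers 1 ratio and raises the other, and opposite signs in both are not independent. Summed alpha-defensins were higher in HFD VSG by 0.17 (0.17 to 0.18) in the crypts and 0.21 (0.21 to 0.22) in the villi, and by 0.51 and 0.60 against UMIs outside the family and *Lyz1*. Over the alternatives the value ran from -0.04 to 0.51 in the crypts and from 0.07 to 0.72 in the villi, the value below 0 being that with free RNA subtracted at the fractions the study states.

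In the crypts, 9 of 21 members were higher by at least 0.5, where 3.58% of 811 genes were, and 0 were lower, where 21% were. The member median was 0.45 and that of all genes -0.17. *Defa22* had the highest ratio, 1.13 (1.11 to 1.16) or a fold of 2.19, and *Defa32* the next, 0.99 (0.77 to 1.21). One of the 9, *Defa28*, had an interval that reached 0, with 0.50 (-0.02 to 1.05). *Defa21* had 0.93 (0.90 to 0.95), *Gm14851* 0.73 (0.69 to 0.77) and *Defa5* 0.63 (0.53 to 0.73). The lowest were *Defa36* with -0.34 (-0.40 to -0.27), from 4277 to 3388 CPM, and *Defa30* with -0.12 (-0.14 to -0.11). That of *Defa36* kept its sign in 17 of 17 alternatives, but was -0.0032 against UMIs outside the family and *Lyz1*. That of *Defa30* kept its sign in 13, with 0.21 on the same scaling.

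In the villi, 9 of 22 members were higher by at least 0.5, where 6.28% of 2674 genes were, and 2 were lower, where 50.6% were. The medians were 0.36 for the members and -0.51 for all genes. *Gm14851* and *Defa5* led, each with 0.91 (0.90 to 0.93 and 0.86 to 0.96), the latter from 1555 to 2924 CPM. Among the more abundant members *AY761184*, *Defa22* and *Defa21* had 0.66 (0.65 to 0.66), 0.65 (0.64 to 0.67) and 0.60 (0.58 to 0.61), and the less abundant *Gm7849*, *Defa34* and *Defa23* lay between these and the leading pair. *Defa36* and *Gm15293*, the higher ones under the high-fat diet, were lower, with -0.85 (-0.88 to -0.81) and -0.72 (-0.79 to -0.66), at 2659 and 927 CPM in HFD VSG. Of the 9 higher members in each fraction, *Defa21*, *Defa22*, *Gm14851*, *Defa5* and *Defa34* were past 0.5 in both. *Defa5* and *Defa34* share a sequence group, as do *Defa21* and *Defa22*. These counts moved far with the processing, from 1 to 14 higher members in the crypts and from 0 to 19 in the villi over the alternatives tried. The highest counts came from other scalings, which shift all genes alike. The share of all genes past 0.5 was not computed under any alternative, so counts under them say nothing particular to the members.

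**Figure D2:**
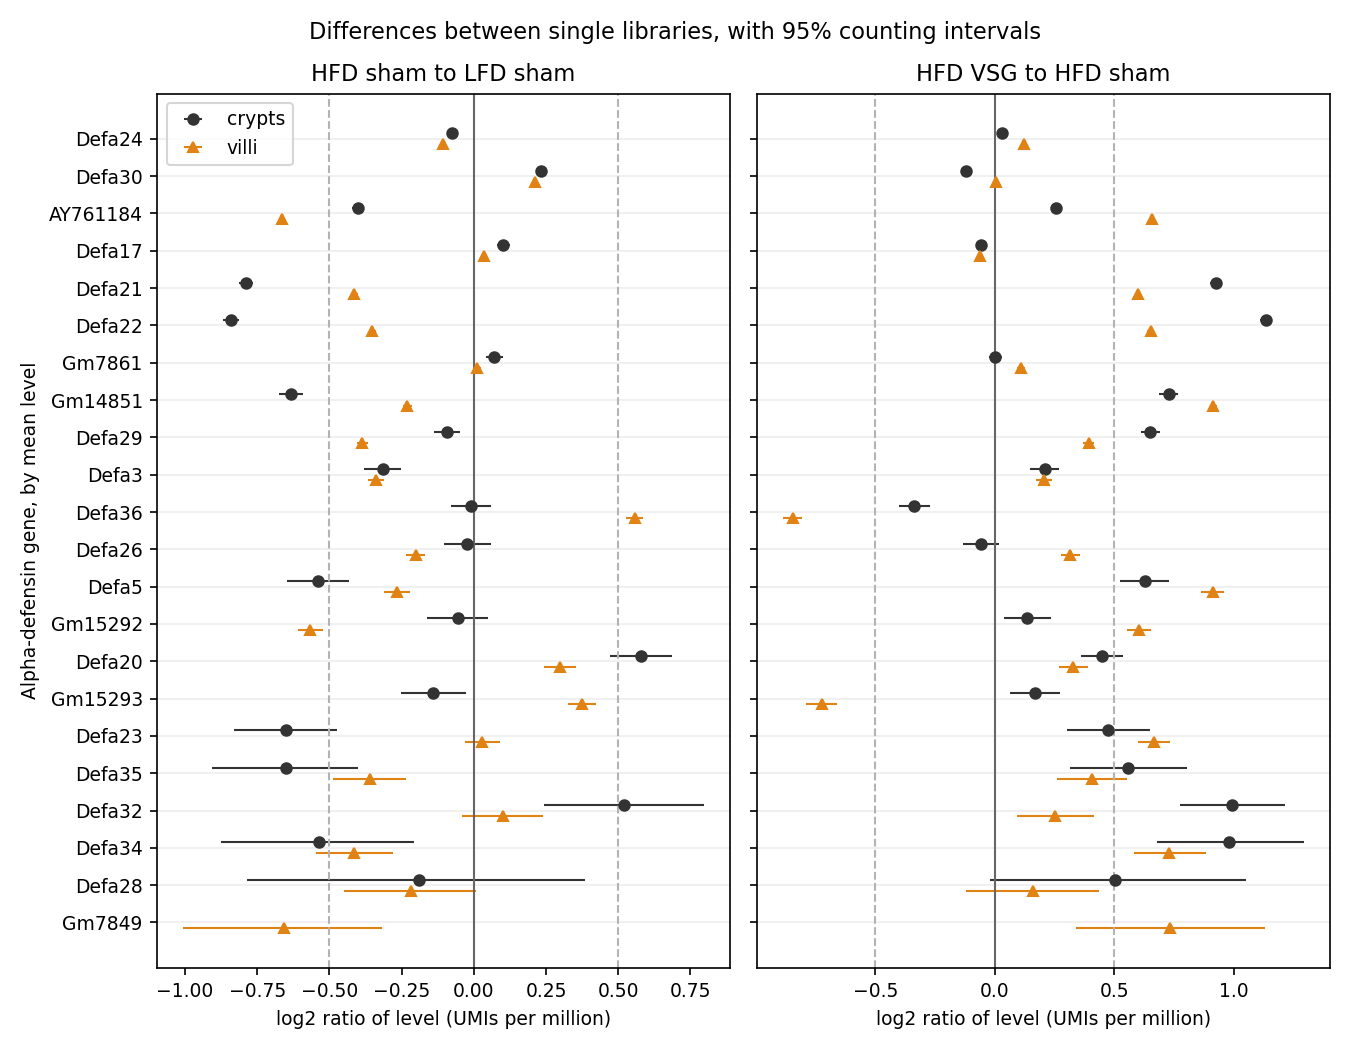
Points give each member's log2 ratio between Paneth cells of 2 libraries, HFD sham to LFD sham on the left and HFD VSG to HFD sham on the right, for members averaging 50 or more UMIs (circles crypts, triangles villi; bars 95% counting intervals; dashed lines 0.5 to either side of 0). *Defa21* and *Defa22* lie left of 0 in the first panel and right of it in the second, *Defa24* and *Defa17* stay near 0 in both, and the panels share the HFD sham libraries.

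Set directly against LFD sham, HFD VSG differed in the sum by 0.03 (0.03 to 0.04) in the crypts and 0.09 (0.09 to 0.09) in the villi, and by 0.15 and 0.27 against UMIs outside the family and *Lyz1*. As a mean over cells the value in the crypts was 0.35, and 3 of 16 alternatives turned its sign there. In the crypts 3 of 21 members were higher by at least 0.5, where 4.79% of 961 genes were, and 0 were lower, where 14.3% were. *Defa32* with 1.51 (1.30 to 1.72) and *Defa20* with 1.03 (0.94 to 1.11) led there, and as a mean over cells they had 2.61 and 1.98. The levels of this pair in the crypts were lowest in LFD sham and highest in HFD VSG. The lowest ratios were those of *Defa36* with -0.35 (-0.40 to -0.29) and *Defa23* with -0.18 (-0.30 to -0.05). In the villi 4 of 22 were higher, where 4.32% of 3935 genes were, and 0 were lower, where 39.3% were. *Defa23* had 0.70 (0.64 to 0.75) and *Gm14851* 0.68 (0.67 to 0.70), and the lowest were *Gm15293* with -0.35 (-0.41 to -0.29) and *Defa36* with -0.29 (-0.33 to -0.25). The *Defa36* ratio kept its sign in 15 of 17 alternatives in the crypts and 16 in the villi, where it reached 0.18 and 0.05. *Defa21* and *Defa22*, the lowest members under the high-fat diet in the crypts, stood at 0.14 (0.12 to 0.15) and 0.29 (0.28 to 0.31) in the crypts here, but at 0.89 and 1.10 as a mean over cells.

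Both fractions of a group came from the same mice, and the log2 ratio of the family's sum, crypts to villi, was -0.02 in LFD sham, -0.04 in HFD sham and -0.08 in HFD VSG. Against UMIs outside the family and *Lyz1* it was -0.08, -0.11 and -0.20. The mean share over cells was 41.5% in LFD sham crypts and 54.3% in LFD sham villi, a wider gap. Members did differ. *Defa20* was higher in the crypts than in the villi of all 3 groups, by 0.54 (0.45 to 0.62) in LFD sham, 0.82 (0.73 to 0.91) in HFD sham and 0.94 (0.88 to 1.00) in HFD VSG, and *Defa32* by 0.85 (0.61 to 1.07) in HFD sham and 1.58 (1.44 to 1.73) in HFD VSG. In LFD sham *Defa35* and *Defa22* led with 0.74 (0.59 to 0.89) and 0.63 (0.61 to 0.64), and *Gm15292* and *AY761184* were lowest with -0.35 (-0.41 to -0.28) and -0.23 (-0.24 to -0.21). *Gm14851* was lower in the crypts of HFD VSG by -0.78 (-0.80 to -0.76), and *Defa23* in those of HFD VSG and HFD sham by -0.96 (-1.05 to -0.86) and -0.77 (-0.93 to -0.61). *Gm7849* in HFD sham had -0.81 (-1.91 to 0.14), not told from 0 at its depth. Of the 22 members tested in each group, 5 were higher and 0 lower by at least 0.5 in LFD sham, where 14.5% and 14.4% of genes were. In HFD sham 2 and 3 were, where 11.2% and 10.7% of genes were. In HFD VSG 6 and 2 were, where 25% and 7.41% of genes were. The counts in HFD sham and HFD VSG were close to the shares over all genes, so they say nothing particular to the members.

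Single Paneth cells varied widely in how much of their RNA was alpha-defensin. The median share per cell was 36.4%, 48.3% and 58.4% in the crypts of LFD sham, HFD sham and HFD VSG and 63.2%, 45.0% and 62.5% in the villi. At least 50% of UMIs were alpha-defensin in 15 of 48, 13 of 29 and 26 of 41 cells in the crypts and in 122 of 179, 96 of 216 and 32 of 43 in the villi. The medians were lowest in the 2 libraries with the shallowest Paneth cells. Within each library the share and the UMIs of a cell had a Spearman correlation of 0.62 to 0.88, over 29 to 216 cells that shared a library. Among cells with at least 10000 UMIs, a limit chosen after seeing the data, the summed shares were 66.3%, 58.5% and 65.5% in the crypts and 64.5%, 62.6% and 68.0% in the villi, closer together than the medians over all cells but not, in the crypts, than the summed shares of all cells.

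The *Lyz1* limit cut a range, not a separate class. Barcodes just inside it (*Lyz1* 2% to 2.5%) had a median alpha-defensin share of 24.7%, 13.5% and 23.3% (1 barcode) in the crypts and 28.4%, 17.1% and 38.5% in the villi. Those just outside it (1.5% to 2%) had 22.5%, 48% and 8.31% in the crypts and 26.6%, 12.1% and 18.8% in the villi. These bands held 1 to 35 barcodes each, and some in both of them had over 70% of UMIs from alpha-defensins.

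**Figure D3:**
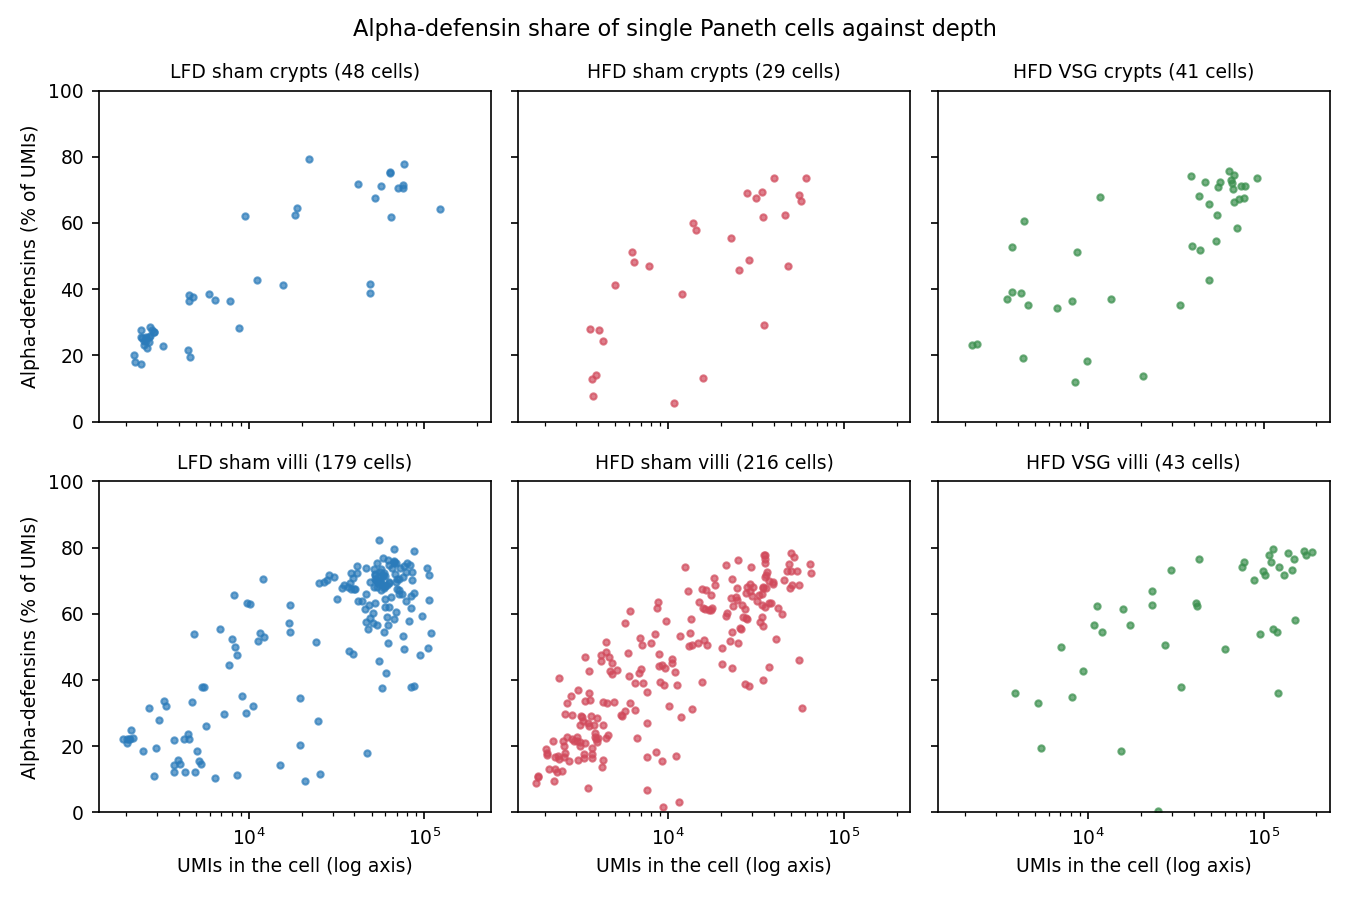
Each point is a Paneth cell, with its UMIs on a log axis and the share of its UMIs that were alpha-defensin on the vertical axis, in a panel per library. Shallow cells lie low and deep cells mostly between 40% and 80%, and the cells of LFD sham crypts and HFD sham villi hold many shallow cells.

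The mixture within the family differed from cell to cell beyond counting error. Among the cells with at least 10000 UMIs (18, 19 and 27 in the crypts, 135, 105 and 37 in the villi), *Defa30* and *Defa24* together made up 54.9% of a cell's alpha-defensin UMIs at the 10th and 71.8% at the 90th percentile in LFD sham villi, and 48.8% and 73.8% in HFD VSG villi, where the 10th percentile was lowest. *Defa21* and *Defa22* together ranged from 0.961% to 19.8% in LFD sham villi, from 0.357% to 16.3% in HFD sham villi and from 2.08% to 24% in HFD VSG crypts. Their coefficient of variation over cells was 56.0% to 111% across libraries, where counting alone gave 1.66% to 4.74%. For *Defa30* and *Defa24* it was 9.94% to 15%, where counting gave 0.532% to 1.24%. In percentage points neither pair spread more throughout. The SD of *Defa21* and *Defa22* was 9.08, 5.35 and 8.33 in the crypts and 7.40, 6.98 and 8.82 in the villi, and that of *Defa30* and *Defa24* was 6.28, 8.56 and 7.23 in the crypts and 6.37, 8.25 and 9.54 in the villi. The gap in the coefficient of variation goes with their different means.

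*Defa21* and *Defa22* moved together over cells, with a Spearman correlation of their shares of 0.91, 0.75 and 0.83 in the crypts and 0.88, 0.91 and 0.89 in the villi. The group of *Defa2*, *Defa33*, *Defa20* and *Defa32* had a correlation with their summed share of 0.85, 0.50 and 0.43 in the crypts and 0.77, 0.74 and 0.60 in the villi. Groups with other promoters or none matched had values as high in some libraries, *Defa29* with 0.17, 0.63 and 0.37 in the crypts and 0.49, 0.69 and 0.60 in the villi, and the group of *Defa35* and *Defa5* with 0.29, 0.59 and 0.13 and 0.60, 0.59 and 0.63. *Defa30* and *Defa24*, the largest part of the total, had -0.85, -0.50 and -0.85 in the crypts and -0.73, -0.66 and -0.78 in the villi. The *Defa3* and *Defa17* group had -0.80, -0.55 and -0.42 in the crypts and -0.76, -0.59 and -0.61 in the villi. These are descriptions over 18 to 135 cells of 1 library, and shares of 1 total pull against each other. *Defa21* and *Defa22* may also share misassigned reads, since 61.1% of their windows are unique.

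**Figure D4:**
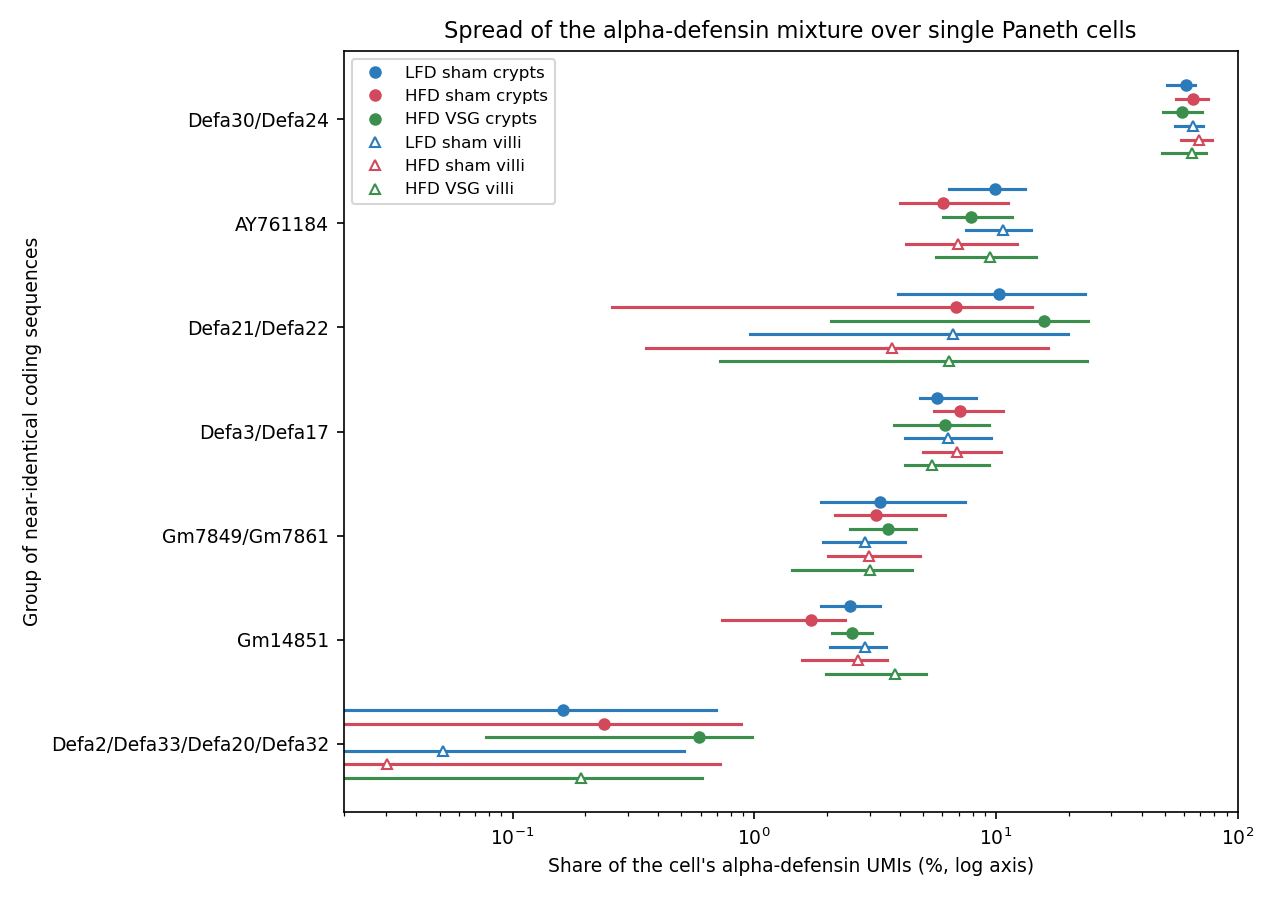
For each group of near-identical genes, symbols give the median over Paneth cells with at least 10000 UMIs of the group's share of a cell's alpha-defensin UMIs and lines the 10th to 90th percentile, per library (log axis; lines that begin under 0.02% start at the left edge). On this axis, which shows relative spread, the lines for *Defa21*/*Defa22* and the *Defa20* group are long and those for *Defa30*/*Defa24* short, although *Defa30*/*Defa24* spread by 6.37 and *Defa21*/*Defa22* by 7.40 percentage points (SD) in LFD sham villi.

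Other genes of the Paneth program were read from a list of 28 genes for defensin processing, granule content and Paneth differentiation, 27 of which were in the feature lists. *Mmp7*, which cuts the precursors, was at 2230, 1707 and 1866 CPM in the crypts and 2311, 1895 and 1718 CPM in the villi, a log2 ratio of HFD sham to LFD sham of -0.39 (-0.49 to -0.28) and -0.29. In the first comparison 3 of 15 listed genes with enough UMIs were higher by at least 0.5 and 2 lower in the crypts, where 12.8% and 6.79% of all genes were, and 6 of 20 and 2 in the villi, where 21.7% and 5.9% were. The lower ones were *Mptx2* (a Paneth pentraxin) and *Reg3g* (an antimicrobial lectin) in both fractions. *Mptx2* was at 3154, 649 and 3699 CPM in the crypts and 4499, 1406 and 3287 CPM in the villi, a wider swing than that of any alpha-defensin named here. After VSG 2 were higher and 4 lower of 15 in the crypts, where 3.58% and 21% of all genes were, and 1 and 4 of 20 in the villi, where 6.28% and 50.6% were. *Mptx2* was higher in both, and *Reg3g* in the crypts only. Against LFD sham, *Reg3g* was still lower by at least 0.5 in HFD VSG in both fractions. *Agr2* and *Tff3*, genes of goblet cells too, were higher in HFD sham than in LFD sham in both fractions, by 2.03 and 1.06 in the crypts and 1.15 and 1.17 in the villi. From HFD sham to HFD VSG both were lower by at least 0.5 in the crypts, but not in the villi. Goblet markers as a list made up 0.827%, 1.2% and 0.986% of Paneth UMIs in the crypts and 0.940%, 1.38% and 1.19% in the villi. Enterocyte markers made up 0.721%, 0.758% and 0.636% in the crypts and 0.133%, 0.346% and 0.220% in the villi. The part of either list in these differences was not tested.

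Alpha-defensin RNA was found in nearly every other barcode as well. Passing barcodes under the *Lyz1* limit held 2030, 1945 and 629 CPM in the crypts and 9227, 7025 and 2543 CPM in the villi, and 98.5% to 100% of them had at least 1 alpha-defensin UMI. Those with *Lyz1* at 1% to 2% were few (14, 8 and 2 in the crypts, 22, 74 and 13 in the villi). They held 45305, 46427 and 1047 of 113748, 74111 and 53428 alpha-defensin UMIs in the crypts. In the villi they held 236651, 140299 and 139609 of 521597, 384135 and 360716. Barcodes under 0.5% *Lyz1* had 1130, 728 and 596 CPM in the crypts and 4488, 3608 and 1526 CPM in the villi. Immune-marker barcodes, which should lack these genes, held 3646, 3084 and 2119 CPM in the crypts and 14966, 17102 (4 barcodes) and 4242 CPM in the villi, at median depths of 1875 to 5345 UMIs against 9235 to 30872 for all other passing barcodes. Droplets with fewer than 100 UMIs held 13851, 9832 and 8249 CPM in the crypts and 60202, 58144 and 24031 CPM in the villi. Of the immune-marker barcodes 98.4% to 100% held an alpha-defensin UMI too, so that share was read as no sign of expression. Paneth cells held 38.9% to 64.9% of all alpha-defensin UMIs of a library, and barcodes not called as cells 28.3% to 45.5%.

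The droplets gave a second reading of the mixture in each library, one that does not depend on which cells passed the filters. *Defa24* made up 45.6%, 46.9% and 45.7% of their alpha-defensin UMIs in the crypts and 48.5%, 47.7% and 45.8% in the villi, close to the Paneth cells. As shares of the family, *Defa21* and *Defa22* in HFD sham to LFD sham crypts differed by -0.65 and -0.70 in Paneth cells and by -0.40 and -0.19 in droplets. In the villi they differed by -0.29 and -0.23 in Paneth cells and by -0.04 and 0.17 in droplets, so there the lower share of *Defa22* was seen in called Paneth cells and not in free RNA. From HFD sham to HFD VSG both readings were above 0, with 0.75 and 0.96 against 0.52 and 0.48 in the crypts and 0.38 and 0.44 against 0.26 and 0.20 in the villi. *Defa36*, higher in HFD sham than in LFD sham villi in Paneth cells, had -0.17 in the droplets.

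Barcodes with goblet markers carried another mixture than Paneth cells, droplets and other barcodes did. They are barcodes with at least 2% of UMIs from *Muc2*, *Fcgbp*, *Clca1*, *Zg16*, *Tff3*, *Spink4* and *Agr2*, under the *Lyz1* limit, and the 2% was set after seeing the data. Barcodes with immune markers of 1% or more or enterocyte markers of 5% or more were left out of them. Immune-marker barcodes had at least 1% of UMIs from immune markers, with goblet markers under 2% and enterocyte markers under 5%. *Defa24* made up 72.1%, 54.8% and 82.0% of their alpha-defensin UMIs in the crypts and 65.5%, 56.6% and 74.0% in the villi. In enterocyte-marker barcodes it was 47.8% to 50.9%, in immune-marker barcodes 48.4% to 52.8% and in Paneth cells 45.6% to 50.5%. The ratio of *Defa24* to *Defa30* in them was 20.8, 1.82 and 41.3 in the crypts and 10.4, 3.30 and 36.6 in the villi. In Paneth cells of the HFD sham libraries it was 3.24 in the crypts and 2.91 in the villi, so the goblet-marker value was below that of Paneth cells in HFD sham crypts and little above it in HFD sham villi. In HFD sham crypts 86.9% of the goblet-marker total came from 1 barcode. Among goblet-marker barcodes with under 2% alpha-defensin UMIs, which leaves that one out, the ratio was 10.3, 7.33 and 22.2 in the crypts and 5.54, 5.10 and 15.3 in the villi, against 2.91 to 4.01 in Paneth cells and 3.02 to 3.76 in droplets.

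Part of this came from barcodes led by *Defa24* (at least 2% of UMIs and 100 UMIs from alpha-defensins, at least 75% of those from *Defa24*), chosen on these values and given as a description. Outside Paneth cells, 462 barcodes met the limits of 2% and 100 UMIs, 34, 8 and 14 in the crypts and 122, 238 and 46 in the villi. Of these, 4, 0 and 9 in the crypts and 20, 22 and 20 in the villi of LFD sham, HFD sham and HFD VSG were led by *Defa24*. All 75 carried goblet markers. Goblet-marker barcodes with at least 2% of UMIs from alpha-defensins numbered 7, 3 and 13 in the crypts and 52, 59 and 32 in the villi. *Defa24* made up 83.5% to 90.3% of their alpha-defensin UMIs and *Defa17* 8.0% to 12.2%, while *Defa30* made up 0.254% to 1.51% and *Defa21* and *Defa22* each at most 0.245%. In LFD sham villi they held *Muc2* (the main mucin of goblet cells) at 10455 CPM, *Fcgbp* at 18788 CPM and *Spink4* at 35858 CPM, against 842, 139 and 7372 CPM in Paneth cells. Their lower *Lyz1* was fixed by the limit that kept them out of the Paneth cells. Their *Mmp7* was 1462 CPM there, the highest of the 5 libraries that held such barcodes, and 685 to 900.3 CPM in the other 4. In all other goblet-marker barcodes it was 172 to 403 CPM, and in Paneth cells 1707 to 2311 CPM. Only 3 of the 556 Paneth cells met the same *Defa24* limit. Doublets were not removed, and whether these barcodes hold 1 cell or more was not tested.

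**Figure D5:**
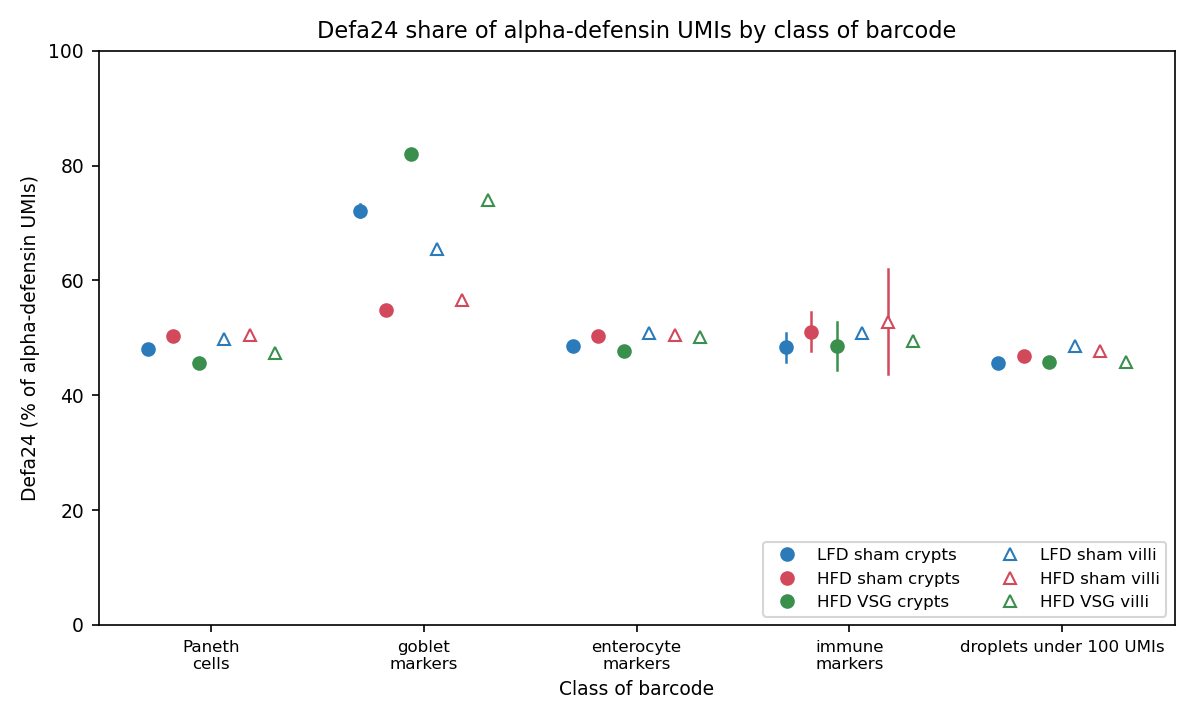
Symbols give the share of alpha-defensin UMIs that were *Defa24* in each class of barcode and library, with exact 95% binomial intervals (classes other than Paneth cells are under the *Lyz1* limit; droplets have fewer than 100 UMIs). Goblet-marker barcodes lie above the other classes in 4 libraries by more than 10 percentage points and in HFD sham by less, and the wide interval is that of 4 immune-marker barcodes.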

How the data were processed

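Single-cell RNA was measured with a droplet 3′ assay in 6 libraries, 1 per group and fraction, each of 2 or 3 pooled mice. The deposited UMI counts per gene and barcode were made by the authors with Cell Ranger 6.0.0 against mm10, which leaves out reads that fit several genes. Raw and filtered files held the same counts for called barcodes, so free RNA had not been subtracted. Groups follow the sample titles.

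Called barcodes with at least 750 genes and at most 20% mitochondrial UMIs were kept, and those with *Lyz1* at 2% of UMIs or more were taken as Paneth cells. Doublets were not removed, and Paneth barcodes with markers of a second type are counted in the text. UMIs were summed over the Paneth cells of a library and divided by their total (CPM). Called barcodes of a library held 60522766 to 155522445 UMIs. Levels have exact Poisson intervals, shares exact binomial (Clopper-Pearson) ones, and log2 ratios exact binomial intervals of both sums, all at 95%. In ratios, counts under 3 UMIs were set to 3. With 1 library per group there was no test and no p-value, and the study's test over cells was not used. Free RNA was read in droplets with fewer than 100 UMIs.

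Members and lists were chosen with earlier results of these data known. Values are given for the 10 members highest in mean level, the 3 lowest that hold at least 3 UMIs, the 2 highest and 2 lowest ratios of each comparison among members averaging 50 UMIs or more, *Lyz1* and *Mmp7*. A ratio of 0.5 on the log2 scale was the size used for counts. Other members are named by count or where a sentence needs them, and those were chosen after their values were seen, as were the limits for marker classes, deep cells and *Defa24*-led barcodes. Coding sequences came from GENCODE vM21 (32235 of 32285 genes matched by identifier) and promoters from RefSeq. Python 3.11.15, numpy 2.4.6, scipy 1.17.1, pandas 2.3.3 and matplotlib 3.10.9 were used, and the scripts were tested on simulated data. Alternatives in filters, limits, scaling and free-RNA subtraction are given at the end.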

Additional observations from a re-analysis of the deposited data

Results flagged for a closer look

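Values of 2 genes had opposite signs in the crypts and the villi of the same pools of mice, among members whose counting intervals lay off 0 in both and whose log2 ratio was at least 0.5 to either side of 0 in 1 of them. Smaller differences of opposite sign are not listed here. *Gm15293* in HFD VSG to HFD sham had a log2 ratio of 0.17 (0.06 to 0.27) in the crypts, from 1529 to 1719 CPM, and -0.72 (-0.79 to -0.66) in the villi, from 1532 to 927 CPM. The crypt value kept its sign in 15 of 17 alternatives, turning to -0.05 with free RNA subtracted at the fraction the study states and to -0.0035 when scaled to the family, and the villus value in 17. *Defa23* in HFD VSG to LFD sham had -0.18 (-0.30 to -0.05) in the crypts, from 849 to 752 CPM, and 0.70 (0.64 to 0.75) in the villi, from 901 to 1459 CPM. The difference between fractions was not tested in either case, since each value rests on 1 library per group. No unique 90-base window was found in the end of the *Defa23* transcript, against 93.8% of windows in *Gm15293*, so the level of *Defa23* is the less certain.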

How the results depend on the processing

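The summed ratio of HFD sham to LFD sham kept its sign in all 16 alternatives in the villi (-0.33 to -0.01) and in 13 of 16 in the crypts (-0.36 to 0.13), turning with the mean over cells, thinning to 1500 UMIs and free-RNA subtraction at the fraction the study states. HFD VSG to HFD sham kept it in 16 in the villi (0.07 to 0.72) and 15 in the crypts (-0.04 to 0.51). HFD VSG to LFD sham kept it in 16 in the villi (0.02 to 0.43) and 13 in the crypts (-0.02 to 0.35). *Defa21*, *Defa22*, *AY761184*, *Gm14851* and *Defa5* kept their sign in 17 of 17 alternatives in the first and second comparison and both fractions. *Defa21* and *Defa22* turned to -0.24 and -0.21 in HFD VSG to LFD sham villi without the 5 richest cells. Those 5 cells held 7.17% to 47.5% of a library's Paneth alpha-defensin UMIs. Leaving them out, the limit of 10000 UMIs, scaling to the family and, for counts, the mean over cells were chosen after seeing the data. The cause of each change was not tested. No paired analysis was possible because each group had 1 library per fraction and no test was made. The low members were limited by few UMIs and by sequence shared with near-identical copies.

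The family's share of Paneth UMIs moved by more than its counting interval under all 13 alternatives, values being in the order LFD sham, HFD sham and HFD VSG. *Lyz1* at 1% or more gave 61.5%, 55.4% and 63.5% in the crypts and 62.7%, 54.7% and 63.7% in the villi. *Lyz1* at 5% or more gave 66.3%, 60.9% and 65.9% in the crypts and 64.3%, 61.1% and 70.1% in the villi. *Lyz1* at 2% of UMIs outside the family gave 61.9%, 57.6% and 63.6% in the crypts and 63.8%, 58.0% and 67.1% in the villi. At least 1500 genes gave 65.2%, 58.5% and 64.6% in the crypts and 64.2%, 61.7% and 67.9% in the villi. At most 10% mitochondrial UMIs gave 62.9%, 59.2% and 65.4% in the crypts and 64.1%, 60.3% and 67.8% in the villi. No filter on barcodes gave 60.6%, 55.8% and 63.0% in the crypts and 63.1%, 53.6% and 67.1% in the villi. Second-type barcodes left out gave 63.5%, 60.2% and 65.3% in the crypts and 64.1%, 59.6% and 70.0% in the villi. Cells with at least 10000 UMIs gave 66.3%, 58.5% and 65.5% in the crypts and 64.5%, 62.6% and 68.0% in the villi. The 5 richest cells left out gave 57.5%, 48.9% and 61.4% in the crypts and 63.0%, 56.8% and 63.8% in the villi. Free RNA subtracted at 5% gave 65.8%, 59.7% and 67.2% in the crypts and 66.6%, 61.0% and 71.0% in the villi. Free RNA subtracted at 25% gave 74.0%, 67.6% and 74.5% in the crypts and 73.9%, 68.2% and 80.0% in the villi. Free RNA subtracted at the fraction the study states gave 64.4%, 68.3% and 66.2% in the crypts and 66.3%, 65.7% and 69.0% in the villi. The mean over cells gave 41.5%, 45.4% and 52.8% in the crypts and 54.3%, 44.3% and 58.9% in the villi.

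For the level outside Paneth cells in CPM, the 3 alternatives moved every value. *Lyz1* under 0.5% gave 1129.8, 728 and 596 in the crypts and 4488, 3608 and 1526 in the villi. Immune-marker barcodes gave 3646, 3084 and 2119 in the crypts and 14966, 17102 and 4242 in the villi. All called barcodes under 2% *Lyz1* gave 2387, 2153 and 829.8 in the crypts and 9731, 9118 and 2818 in the villi. The levels in droplets moved too. Droplets with 10 to 50 UMIs gave 18070, 11334 and 10904 in the crypts and 77566, 63078 and 21969 in the villi.

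The *Defa24* share of goblet-marker barcodes was at least 54.6% in both alternatives, which were chosen after seeing the data. *Lyz1* under 0.5% gave 67.1% in HFD sham crypts, 67.7% in LFD sham villi, 67.4% in HFD sham villi, 74.5% in HFD VSG villi. Goblet markers at 5% or more gave 73.3% in LFD sham villi, 68.4% in HFD sham villi, 77.1% in HFD VSG villi.

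The share of all genes past the size was computed under the main setting only, and a change of scaling shifts all genes alike. The counts of members below therefore show how far they move with the processing and say nothing particular to the members. Counts of higher members moved by over 1.5 times as follows. *Lyz1* at 1% or more gave 0 for HFD sham to LFD sham in the crypts, 0 for HFD sham to LFD sham in the villi. *Lyz1* at 2% of UMIs outside the family gave 1 for HFD sham to LFD sham in the crypts. At least 1500 genes gave 1 for HFD sham to LFD sham in the crypts. Cells with at least 10000 UMIs gave 1 for HFD sham to LFD sham in the crypts. The 5 richest cells left out gave 0 for HFD sham to LFD sham in the crypts, 2 for HFD VSG to LFD sham in the villi. Scaling to UMIs outside the family and *Lyz1* gave 0 for HFD sham to LFD sham in the crypts, 14 for HFD VSG to HFD sham in the crypts, 0 for HFD sham to LFD sham in the villi, 17 for HFD VSG to HFD sham in the villi. Median-of-ratios scaling gave 0 for HFD sham to LFD sham in the crypts, 0 for HFD sham to LFD sham in the villi, 19 for HFD VSG to HFD sham in the villi, 9 for HFD VSG to LFD sham in the villi. A size of 1 gave 0 for HFD sham to LFD sham in the crypts, 1 for HFD VSG to HFD sham in the crypts, 0 for HFD sham to LFD sham in the villi, 0 for HFD VSG to HFD sham in the villi, 0 for HFD VSG to LFD sham in the villi. No minimum of UMIs gave 6 for HFD sham to LFD sham in the crypts, 5 for HFD VSG to LFD sham in the crypts, 3 for HFD sham to LFD sham in the villi, 7 for HFD VSG to LFD sham in the villi. Free RNA subtracted at the fraction the study states gave 5 for HFD VSG to HFD sham in the crypts. Scaling to the UMIs of the family gave 5 for HFD VSG to HFD sham in the crypts, 2 for HFD sham to LFD sham in the villi, 4 for HFD VSG to HFD sham in the villi. The mean over cells gave 9 for HFD VSG to LFD sham in the crypts, 0 for HFD sham to LFD sham in the villi. *Lyz1* at 5% or more gave 2 for HFD sham to LFD sham in the villi. No filter on barcodes gave 0 for HFD sham to LFD sham in the villi.

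Counts of lower members moved by over 1.5 times as follows, again without the share of all genes under each alternative. Free RNA subtracted at the fraction the study states gave 2 for HFD sham to LFD sham in the crypts, 1 for HFD VSG to HFD sham in the crypts. The mean over cells gave 2 for HFD sham to LFD sham in the crypts, 1 for HFD VSG to LFD sham in the crypts, 8 for HFD sham to LFD sham in the villi. Scaling to the UMIs of the family gave 4 for HFD sham to LFD sham in the crypts, 1 for HFD VSG to HFD sham in the crypts. A size of 1 gave 0 for HFD sham to LFD sham in the crypts, 0 for HFD sham to LFD sham in the villi, 0 for HFD VSG to HFD sham in the villi. No minimum of UMIs gave 2 for HFD VSG to HFD sham in the crypts, 3 for HFD VSG to LFD sham in the crypts. *Lyz1* at 1% or more gave 5 for HFD sham to LFD sham in the villi. No filter on barcodes gave 5 for HFD sham to LFD sham in the villi. The 5 richest cells left out gave 6 for HFD sham to LFD sham in the villi. Scaling to UMIs outside the family and *Lyz1* gave 9 for HFD sham to LFD sham in the villi, 0 for HFD VSG to HFD sham in the villi. Median-of-ratios scaling gave 9 for HFD sham to LFD sham in the villi, 0 for HFD VSG to HFD sham in the villi.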
